A study of Mus musculus with 2 samples.

Results

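The forkhead genes Foxf1, Foxc2 and Foxl1 lie close together on mouse chromosome 8. The listed changes of histone marks in the 75 kb around them were higher signals in wild-type than in Dicer knockout cells. The locus was taken by position, as the window from 123595000 to 123670000 of build mm9, and was chosen by its KO and WT reads, with results of these data known. Of 21418 events in the 6 deposited lists, 7 fell in it. They were 5 events of H3K4me3 (trimethylated lysine 4 of histone H3) and 2 of H3K36me3 (trimethylated lysine 36), all higher in wild type, as were 88.2% of listed H3K4me3 and 66.2% of listed H3K36me3 events. No event of H3K27ac (acetylated lysine 27) was listed there in either direction. The 5 H3K4me3 events formed 1 block of 3572 bp with 17.3 times as many reads in wild type as in the knockout, or 9.79 times on a scale set by background reads and 29.3 times without the first event.

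The study compared mesenchymal stromal cells (MSCs) of the mouse that lack Dicer (KO) with cells that carry it (WT), by chromatin immunoprecipitation and sequencing. Both were immortalized monoclonal lines, called fibroblasts in the sample titles, grown in Alpha-MEM with fetal bovine serum and fixed with formaldehyde. So a difference between genotypes cannot be told apart from a difference between clones, and the sources used here do not give the Dicer allele or how it was removed. Only H3K27ac has samples in the labels, 1 for WT and 1 for KO. Each list gives a single pooled or unseparated value per genotype, so there is no replicate error and no test.

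Dicer cuts microRNA precursors into their mature form, and microRNAs lower the stability and translation of messenger RNAs. Forkhead factors bind DNA through a winged-helix domain. Foxf1 is needed for the mesenchyme of lung and gut. Foxc2 acts in the axial skeleton, the kidney and the valves of lymphatic vessels, and is used as a marker of mesenchymal change in tumour cells. Foxl1 marks mesenchymal cells beneath the gut epithelium, which support the intestinal stem cell niche. H3K4me3 is found at active and poised promoters, H3K27ac at active promoters and enhancers, and H3K36me3 along transcribed gene bodies.

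In the RefSeq annotation of another build, GRCm38.p6, the genes follow one another along chromosome 8 as Fendrr, Foxf1, Mthfsd, Foxc2, Foxl1 and Gm33633. Fendrr is a long noncoding RNA of the lateral mesoderm that lies beside Foxf1. Mthfsd encodes a protein with a methenyltetrahydrofolate synthetase domain. The lists give positions and no gene names, and no annotation of mm9 was used here. The events are therefore named by position only, and none is assigned to 1 of the 3 forkhead genes, to an exon or to an intron.

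The H3K4me3 list higher in WT also names, for some events, a short sequence that the event caller linked to the position. The H3K4me3 event nearest the start of the chromosome, at 123640494, was the only one of the 7 to carry one. It is shown because that event also kept most of the KO reads (below), and it is given in capitals as deposited, on the minus strand, with its reverse complement:

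Deposited 8-base sequence at 123640494: CGCCCGGT
Reverse complement: ACCGGGCG

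The sequence holds 2 CG dinucleotides. In the whole list 353 of 5542 events (6.37%) had such a sequence, drawn from 3 different ones, and 139 had this one. It is a description of the position, not a binding site.

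The block of H3K4me3 was described event by event, from the start to the end of the window. WT reads are the counts that the event caller gave to each position, and KO reads are scaled by the authors to the WT library. The bracket after a ratio is its 95% exact conditional binomial interval, which covers counting error only. The first event, at 123640494, had 1009 reads in WT against 132 in KO after scaling, a ratio of 7.63 (6.69 to 8.73). The second, 621 bp further on at 123641115, had 554 and 36.4, a ratio of 15.2 (12.01 to 19.5). The third, at 123641994, had the most reads of the block in WT, 1309 against 31.8 in KO, a ratio of 41.2 (32.3 to 53.3). Its WT reads were the highest of the block while its KO reads were in the middle of the 5. The fourth, at 123643028, had 885 and 11.8, a ratio of 75.02 (50.1 to 114). The fifth, at 123644065, had the fewest reads in WT, 364 against 26.3 in KO, a ratio of 13.8 (10.5 to 18.7). The list holds only events higher in WT, so the WT value of each event was above its KO value by selection. The lowest WT value of the block (364) was also above its highest KO value (132).

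**Figure D1:**
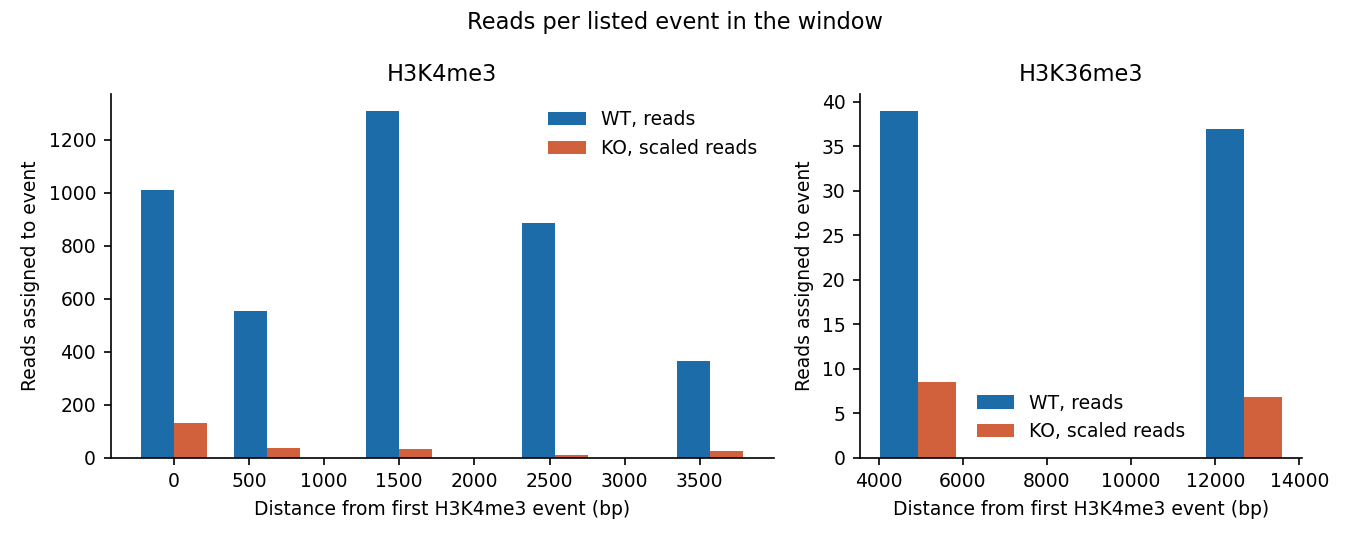
Reads per listed event (vertical axis) against the distance in bp from the first H3K4me3 event (horizontal axis), with WT reads in blue and KO reads, scaled by the authors, in orange. Left, the 5 H3K4me3 events, where WT ranged from 364 to 1309 and KO from 11.8 to 132. Right, the 2 H3K36me3 events, with 39 and 37 reads in WT; the vertical scales differ.

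In most pairs of the 5 ratios the counting intervals did not overlap. The event caller shares out reads among neighbouring events, and the intervals do not cover errors of that sharing. Differences between single events of the block are therefore descriptions. In rising order they were the first event, the fifth, the second, the third and the fourth. The fifth and second overlapped in their intervals, as did the third and the fourth, while the first event lay below all the others. From the lowest to the highest the ratio changed 9.84-fold within 2534 bp.

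The lowest ratio was at the event with the most KO reads, and the highest ratio at the event with the fewest. Neither of these events had the most or the fewest WT reads. The first event held 24.5% of the block's WT reads (95% exact binomial interval 23.2 to 25.8) and 55.4% of its KO reads (51.0 to 59.7). The fourth held 21.5% of the WT reads (20.2 to 22.8) and 5.02% of the KO reads (3.30 to 7.27). The third held the largest share in WT, 31.8% (30.3 to 33.2), and 13.3% in KO (10.5 to 16.6). So most KO reads given to these 5 listed events were at the event nearest the start of the chromosome, while the WT reads were spread over the first 4 events. KO reads at positions that were not listed are unknown.

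Set against the deposited expected signal of each genotype on chromosome 8, called background reads here, only the first event was above it in KO. The files do not define this expected signal, so values relative to it are descriptions. WT had 127.7 background reads per event and KO 157.2, before scaling. KO reads at the first event, 287 before scaling, were 1.83 times the KO background. At the other events, in order of position, they were 79, 69, 26 and 57, which is 0.503, 0.439, 0.163 and 0.363 of it. In WT all 5 events were above the WT background, from 2.85 times at the fifth to 10.3 times at the third. This holds for the whole list, where WT reads exceeded the WT background in 5541 of 5541 events (100%). In the whole list, KO reads exceeded the KO background in 4562 of 5541 events (82.3%). Most listed positions with less H3K4me3 in KO thus still carried reads above that background. The window was chosen by its KO and WT reads, so its contrast with the list describes that choice. Both counts leave out 1 of the 5542 listed events, which had no KO reads.

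**Figure D2:**
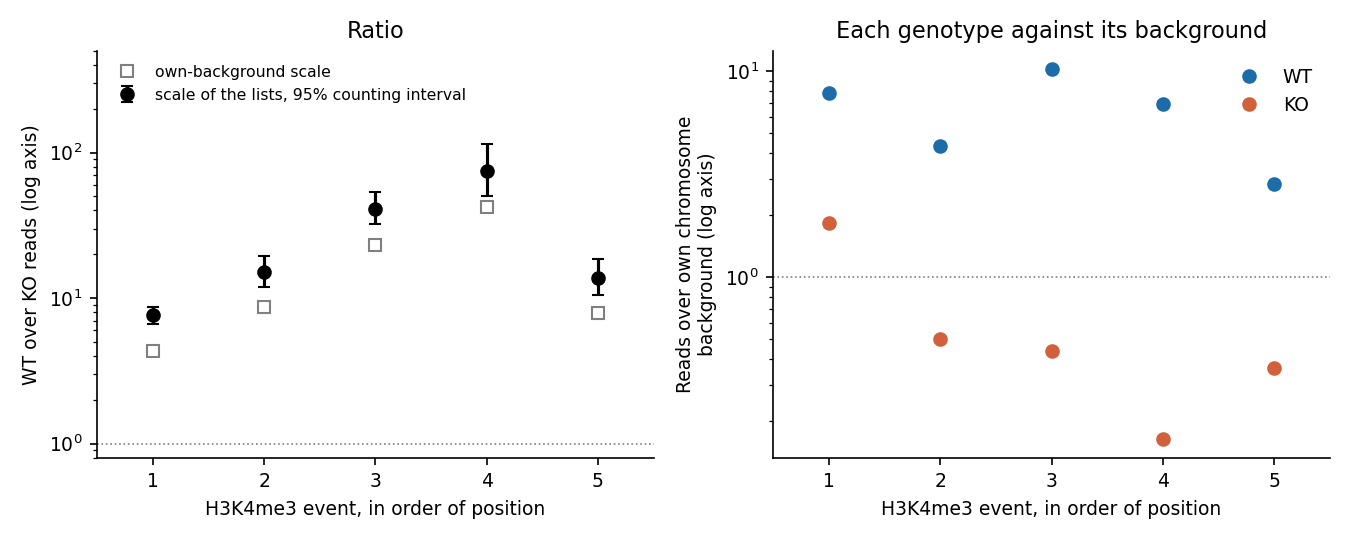
Left, the WT over KO ratio (log axis) of the 5 H3K4me3 events in order of position, as filled circles with 95% counting intervals at the scale of the lists and as open squares on the own-background scale. Right, the reads of each genotype over its own background on chromosome 8 (log axis), where the dotted line marks 1 and only the first KO value, 1.83, lies above it.

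The events of the window were compared with all listed H3K4me3 events. All 5 were higher in WT, against 88.2% of the 6280 listed events of both directions. All 5 were at least 5-fold higher in WT, against 17.0%, and 4 were at least 10-fold higher, against 7.90%. The window was chosen for such values, so these shares describe it and test nothing. Among the 5542 events higher in WT, the fourth event ranked 53 by ratio, the third 112, the second 336, the fifth 373 and the first 658. The median ratio of the list was 3.01 (quartiles 2.55 and 4.16), below every event of the block. In reads the block was not unusual: WT reads per event ranked between 632 and 3737, around a list median of 558. The third event had a −log10 q at the limit of 999 in the authors' deposited list, a limit reached by 6 events.

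**Figure D3:**
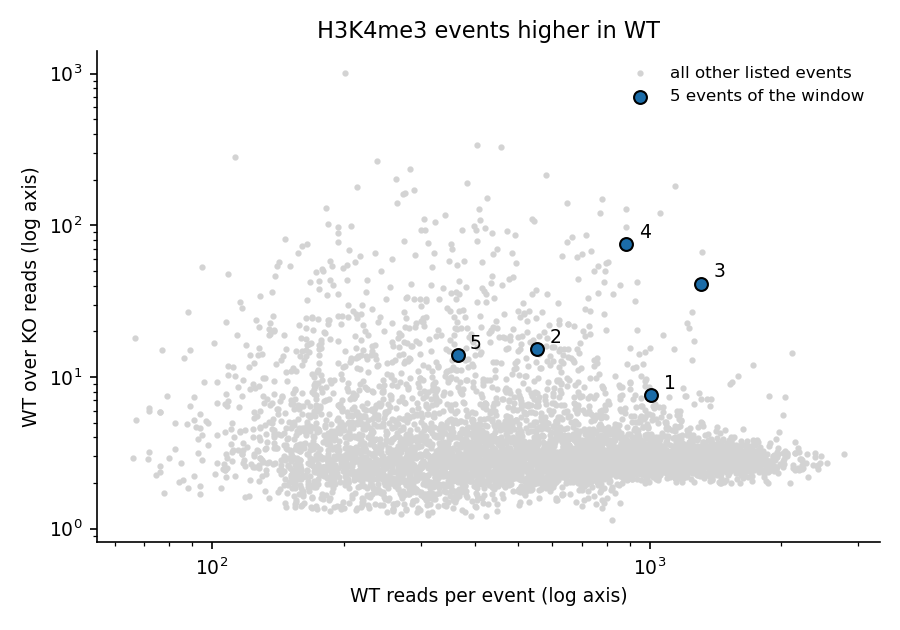
WT over KO ratio against WT reads (both on log axes) for the H3K4me3 events listed as higher in WT. The 5 events of the window are numbered by position; the third and the fourth combine high reads (1309 and 885) with ratios of 41.2 and 75.02.

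As a block, the 5 events had 4122 reads in WT against 238.6 in KO after scaling, a ratio of 17.3 (15.8 to 19.0). The first event weighed on this value: without it the ratio was 29.3. When events of this list at most 5 kb apart were joined, 152 blocks held 5 or more events, and their median ratio was 2.74 (quartiles 2.55 and 3.28). The block of the window is called the forkhead block here, after the window and without assigning it to a gene. The forkhead block ranked 3 of 152 by ratio, 6 by the spread of ratios within a block (9.84-fold, against a median of 1.90-fold) and 64 by reads per event. The 6 blocks at least 10-fold higher in WT had a median spread of 11.4-fold. In 5 of these 6, at least 4 events had KO reads below the KO background, the forkhead block among them. Among all 152 blocks, 6 had at least 4 such events and 32 had any. Blocks picked for a high ratio are bound to have few KO reads, so this describes the selection. The forkhead block ranked 1 of 5 such blocks on chromosome 8.

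The size of the ratio depends on the scale between genotypes. The authors' scale multiplied KO reads by 0.461 in this list. With each genotype divided by its own background on chromosome 8, the block's ratio was 9.79, and the 5 events had ratios of 4.32, 8.63, 23.3, 42.5 and 7.85 in order of position. The list's median moved from 3.01 to 1.48, a shift of -1.02 on the log2 scale. On this scale the events of a chromosome share 1 constant, so ranks within a chromosome could hardly change. The constants differ between chromosomes, and ranks within the whole list could move only by those differences. Such ranks are not given as a check. KO background reads of H3K4me3 on chromosome 8 stood to those of WT at 0.959 of the value of the median chromosome.

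H3K36me3 was also listed as higher in WT, at few reads. At 123645436, 1371 bp past the last H3K4me3 event, WT had 39 reads and KO 8.5 after scaling, a ratio of 4.59 (1.81 to 14.96). At 123653186, 9121 bp past it, WT had 37 reads and KO 6.8, a ratio of 5.44 (1.96 to 21.1). Both events lay on the same side of the H3K4me3 block, and their ratios did not differ beyond their intervals. They rested on 5 and 4 KO reads before scaling.

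Together the 2 events had a ratio of 4.97 (2.49 to 11.3). Being higher in WT is the common direction in this mark: 66.2% of 5050 listed H3K36me3 events were. In reads they stood near the bottom of their list, at 3104 and 3166 of 3341, and their −log10 q values were 2.48 and 3.88, where the list begins at 2. Their WT reads were 1.79 and 2.20 times the local expected signal, close to the list median of 1.88. In ratio they were above the median of 3.62 and ranked 1163 and 911. Neither remained at a −log10 q of at least 5 or with at least 50 reads.

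For H3K27ac the window held 0 events higher in WT and 0 higher in KO, among 10088 in both lists, of which 17.5% were higher in WT. The lists hold only positions that differed between genotypes, so this does not say whether the window carries H3K27ac. It says only that no difference was listed at the authors' threshold. Whether every position of the window was tested is not known. Over the whole genome the fewest reads of a listed H3K27ac event were 110 in the WT list and 107 in the KO list, and the lowest ratios, in other events, were 1.35 and 1.22.

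Most H3K4me3 blocks had no listed H3K27ac event beside them. Within 5 kb, 9 of the 152 blocks (5.92%, 2.74 to 10.9) were accompanied by WT-higher H3K27ac and 0 by KO-higher H3K27ac. Of the 6 blocks at least 10-fold higher in WT, 4 had WT-higher H3K27ac nearby, a share of 66.7% with an exact binomial interval of 22.3 to 95.7. The forkhead block was 1 of the 2 that had none, and both of these had an H3K36me3 event higher in WT within 5 kb. In all, 42 of 152 blocks had such an H3K36me3 event (27.6%, 20.7 to 35.5). The intervals of these shares treat blocks as independent draws, which they are not, so they are descriptions only.

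**Figure D4:**
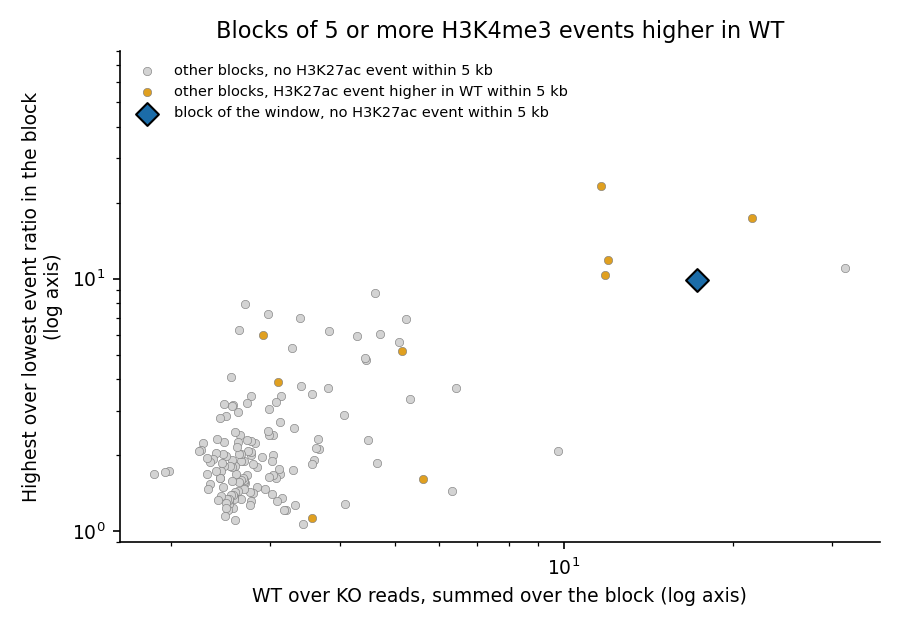
Each point is 1 of 152 blocks of 5 or more H3K4me3 events higher in WT, placed by its summed WT over KO ratio and by the highest over the lowest ratio of its events (both log axes). The forkhead block (diamond) stands at 17.3 and 9.84; orange points have WT-higher H3K27ac within 5 kb.

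Listed events of different marks lay apart in the window. The lists hold only positions that differed between genotypes, so they do not show where each mark lies. No pair of events of different marks lay within 1 kb there, and 1 pair lay within 2 kb, the last H3K4me3 and the first H3K36me3 event. How often listed events of different marks lie this close over the genome was not computed, so these counts only describe the window. Over the genome cut into 34014 windows of 75001 bp, 248 (0.729%) held 5 or more H3K4me3 events higher in WT. Of these, 210 (84.7%) had no H3K27ac event. The makeup seen here, 5 or more H3K4me3 and at least 1 H3K36me3 event higher in WT with no H3K27ac event and none higher in KO, was found in 79 windows, 0.232% of all and 31.9% of the 248.

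The distances to the nearest listed events are given without a comparison to gaps elsewhere in the genome. The outermost events inside the window lay 45494 bp and 16814 bp from its edges. Outside, the nearest event towards the start of the chromosome was an H3K27ac event higher in WT at 123168472, 426528 bp from the edge, with 409 reads in WT and 126 in KO, a ratio of 3.25 (2.64 to 4.04). The nearest on the other side was an H3K27ac event higher in KO at 123782596, 112596 bp from the edge, with 291 reads in KO and 104.5 in WT, a ratio of 2.78 (2.25 to 3.47). Between these positions, over 614123 bp, the 7 events of the window were the only ones listed.

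Within 250 kb of the window, the other listed events were 7 H3K27ac events higher in KO, from 123782596 to 123817471. Their ratios of KO over WT ranged from 1.88 to 4.03 and together gave 2.94, opposite in direction to the forkhead block. Which genes they lie near was not assigned. On chromosome 8 as a whole, events higher in WT made up 84.5% for H3K4me3 (202 of 239), 82.2% for H3K36me3 (189 of 230) and 23.4% for H3K27ac (94 of 402). The H3K4me3 and H3K36me3 events of the window and the 7 H3K27ac events beyond it thus ran in the direction most common for their mark on the chromosome.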

How the data were processed

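Reads had been aligned to mm9, and TopHat 1.4 is named without its role, per the submitters' processing notes. The authors deposited, per the file headers and names, lists of events from GPS (both H3K27ac lists, the KO list of H3K36me3) or GEM (the other 3 lists). Each deposited event has an estimated count for the higher genotype, a scaled control signal for the other, their ratio or fold, an expected signal and a −log10 q, which begins at 2. Pooled replicates are named for H3K27ac only. The names also carry the term dnase_mm9_fib_WT for H3K27ac and H3K4me3, and noControl for H3K4me3 and H3K36me3. What these terms meant for the calling was not established here. Total library depth is unknown. TopHat is the only aligner named, and the versions of the callers are not given in the sources seen.

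All events of the window were reported, with the other genotype's factor recovered as the step, from 0.3 to 3 by 0.0005, that best made low control values whole multiples (within 0.06). It was 0.461 for the WT list of H3K4me3 (78.0% of values whole) and 1.69 for that of H3K36me3 (94.97%). Ratios at the scale of the lists do not use the factor, while unscaled reads, intervals and ratios on the background scale do. The step search was run on data simulated from the recovered factors themselves, with most values made whole multiples. Recovery was thus largely built in, and that run is a weak check of the factors. Intervals are exact Clopper-Pearson at 95% on rounded reads, which are not independent molecules, or on counts of blocks, which are not independent draws. Where 1 genotype has a single value there is no test, so none was run.

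The members, the lists and the block comparison were chosen with earlier results of these data known. The named genes are the 3 of the window, and other genes are named only as neighbours. Promoter sequences of Foxf1, Foxc2 and Foxl1 and markers of the cell type were not analysed here, nor was Dicer1 checked. Intervals were computed with SciPy 1.17.1 and tables with pandas 2.3.3 and NumPy 2.4.6, in Python 3.11.15; figures were drawn with matplotlib 3.10.9.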

Additional observations from a re-analysis of the deposited data

How the results depend on the processing

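Other thresholds, read minimums, window edges, merging, 1 added read and other scales were tried, and leaving out single events and the median-background scale were added after seeing the data. Counts of 0 stayed 0 under each alternative, most of which could not raise them. Of the 10 alternative counts of H3K4me3 and H3K36me3 events higher in WT, 7 were within 1.5 times the count reported: H3K4me3 gave 3 in place of 5 when events at most 1 kb apart were merged, and H3K36me3 gave 0 in place of 2 both at a −log10 q of at least 5 and at 50 reads or more, which left no ratio for it there. The H3K4me3 ratio was 17.3 as reported, 9.79 with reads over own background on the chromosome and 9.77 over the median background. By position, it was 29.3 without H3K4me3 event 1, 13.6 without event 3 and 14.3 without event 4. Leaving out events could not reverse the direction, since the list holds only events higher in WT. Pairs of different marks numbered 1 within 2 kb. H3K27ac had no ratio to vary. No paired analysis was possible because KO and WT each have a single value in a list, and leaving out a replicate was impossible for the same reason. Library depth is unknown, and the H3K36me3 ratios rest on 5 and 4 KO reads.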
